A study of Mus musculus with 27 samples.

Results

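The Hox genes of mouse calvarial cells were followed through 18 days of osteoblast differentiation. They were taken as every gene whose symbol is Hoxa, Hoxb, Hoxc or Hoxd followed only by digits, which gave 39 genes of the 37991 gene identifiers in the expression tables. The 39 genes had 40 identifiers, since Hoxa3 is listed under ENSMUSG00000079560 and ENSMUSG00000059723, and the latter had 0 counts and was not used. The rule uses symbols and no measured value, but the family was chosen with earlier results of these data known.

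The cells came from the calvaria, the bones of the skull vault, of neonatal mice 5 to 9 days old of the strain C57BL/6J-Col3.6 CFP. After 4 days of growth, cells that carried cyan fluorescent protein were sorted and then cultured with ascorbic acid, 4 mM beta-glycerol phosphate and fetal bovine serum, which all samples shared. RNA was sequenced on days 2, 4, 6, 8, 10, 12, 14, 16 and 18 of differentiation as 3 profiles per day, 27 in all, and no untreated group or other strain was included. The fluorescent protein is driven by the Col3.6 fragment of the type I collagen promoter, so the sort selected cells by the activity of that transgene at the start of culture only. The study describes the 3 profiles of a day as triplicate samples, but the sources used here do not say whether they came from separate animals or cultures. The 3 profiles of a day carried 1 barcode and differed by sequencing lane. They were therefore summed to 1 library per day, and the SD over 3 profiles given with some values covers sequencing and quantification but not variation between cultures.

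Hox genes encode transcription factors with a homeodomain, a DNA-binding domain encoded by a stretch called the homeobox. They lie in the clusters HoxA, HoxB, HoxC and HoxD, are numbered into paralogue groups by their place in the cluster, and in the embryo are used along the head-to-tail axis in that order, with low numbers reaching furthest towards the head. The frontal bones arise largely from cranial neural crest that migrates without Hox expression, whereas the parietal bones arise from head mesoderm, and Hoxa2 is known as the gene that shapes the skeleton of the second pharyngeal arch.

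The homeobox is the part that all 39 genes share, and those of Hoxa2 and Hoxd8, the members with the most counts, are shown. Each is the coding strand of 180 bases, read from the GENCODE transcripts of the build NCBIM37, and the 18 bases in capitals encode the core of the helix that contacts DNA. The Hoxa2 homeobox lies at chr6:52113410-52113589 on the minus strand in the second coding exon, where the annotation also places an exon of the Hoxa3 identifier that had 0 counts. The Hoxd8 homeobox lies at chr2:74544582-74544761 on the plus strand in coding exon 2.
Hoxa2: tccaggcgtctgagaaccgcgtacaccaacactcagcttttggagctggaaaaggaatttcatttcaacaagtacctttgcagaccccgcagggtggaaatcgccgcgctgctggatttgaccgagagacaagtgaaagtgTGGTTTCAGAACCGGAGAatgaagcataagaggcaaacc
Hoxd8: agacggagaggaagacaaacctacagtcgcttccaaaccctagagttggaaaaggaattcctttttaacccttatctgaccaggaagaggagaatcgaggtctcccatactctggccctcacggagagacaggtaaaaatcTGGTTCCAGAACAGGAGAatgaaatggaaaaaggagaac
Hoxa2 and Hoxd8 were identical at 57.8% of the 180 positions. Over all 39 homeoboxes, identity to the nearest other member ranged from 71.7% to 93.9% (median 82.8%), and the longest run of identical bases between any 2 of them was 52 bases. The deposited counts are estimates in which a read that fits several genes is divided among them. Of the 28 members with counts, 22 had whole-number counts in every profile (within 0.001) and 6 did not, namely Hoxa2, Hoxa3, Hoxb2, Hoxb3, Hoxd3 and Hoxd4. The 52-base run is shared by Hoxa6 (0 counts) and Hoxb4 (447 counts, whole in every profile), whereas the antisense neighbours Hoxb3os, 5730446D14Rik and 1700109F18Rik had fractions too. Which sequences the divided reads came from was not tested.

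Depth ranged from 22470195 counts on day 10 to 62009157 on day 12 (median 43146793 per day). A gene with 0 counts on a day may hold up to 3 counts of that total, which is 0.0484 to 0.134 CPM (counts scaled to a library of 1000000), and over all 27 profiles the limit was 0.00785 CPM. These limits and the 95% Wilson intervals given below cover counting error only. Levels within a gene are given in CPM of the summed library. Levels between genes are given in TPM, which accounts for length, after division of each profile by its upper quartile. Of the osteoblast markers, Col1a1, the type I collagen chain, was at 1526 TPM or more and Runx2 at 42.0 TPM or more on every day. Sp7 was at 32.3 TPM on day 2, 2.77 on day 8 and 10.6 on day 18, Alpl was as low as 0.467 TPM on day 6, and the late markers Ibsp and Bglap were under 2 TPM up to day 10. Markers of macrophages and adipocytes rose, with values given below.

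The skull vault cells carried counts of 28 of the 39 Hox genes, many of them few, and no member exceeded 12.1 TPM on any day. Of the 39 members, 11 had no count in any of the 27 profiles: Hoxa6, Hoxa9, Hoxa10, Hoxb1, Hoxb6, Hoxb13, Hoxc8, Hoxc11, Hoxd10, Hoxd11 and Hoxd12. Another 15 had counts but never 10 on a day, and 13 had at least 10 counts on 1 day or more. The members without a count made up 28.2% of the family, beside 38.9% of all 37991 genes and 19.4% of the 22337 protein-coding genes. A level of 1 TPM on at least 1 day was reached by 8 members, among them Hoxa2, Hoxa3, Hoxb3, Hoxc13, Hoxd3, Hoxd8 and Hoxd9. They made up 20.5% of the family, beside 59.8% of protein-coding genes. Hoxd8 was at or above 1 TPM on all 9 days, and Hoxa2 and Hoxa3 on 8.

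**Figure D1:**
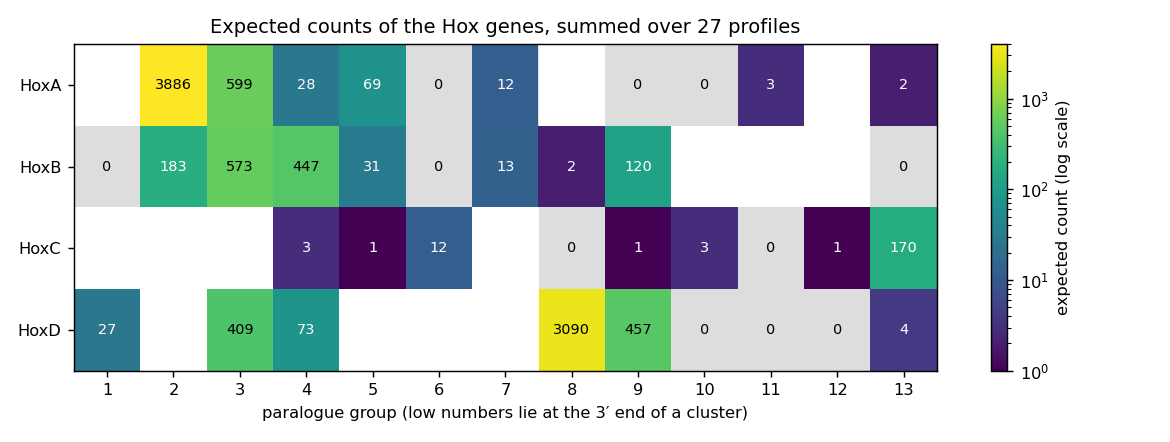
Expected counts of the Hox genes, summed over the 27 profiles and coloured on a log scale, with the 4 clusters as rows and the paralogue groups as columns. Grey cells are genes with 0 counts, and white cells are places without a gene or without a value shown. Hoxa2 and Hoxd8 stand out, and 7 of the 11 members without a count lie in groups 9 to 13.

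Hoxa2 held 36.6% of all 10622.8 Hox counts and Hoxd8 held 29.1%. Averaged over the 9 days, Hoxa2 stood at 7.31 TPM and Hoxd8 at 5.77 TPM, followed by Hoxa3 at 2.18 and Hoxb3 at 2.00 TPM. Further down were Hoxd9 (0.956 TPM), Hoxd3 (0.919 TPM) and Hoxb4 (0.490 TPM), and Hoxc13, Hoxb9, Hoxb2, Hoxa5 and Hoxd4 lay between 0.156 TPM (Hoxd4) and 0.326 TPM (Hoxc13). Neighbours in this order were close, and the SD of Hoxa3 over the 3 profiles of day 10 alone was 3.36 TPM, so Hoxa3 and Hoxb3 could not be ranked.

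By cluster (NCBIM37), HoxA on chromosome 6 held 47.1% of the Hox counts in 11 genes, and HoxD on chromosome 2 (chr2:74506367-74603200) held 38.2% in 9 genes. HoxB on chromosome 11 (chr11:96055630-96229570) held 12.9% in 10 genes, and HoxC on chromosome 15 (chr15:102751534-102867274) held 1.80% in 9 genes. HoxC was the cluster with the fewest counts, 191 in all, of which Hoxc13 had 170. By place within the clusters, paralogue groups 1 to 4 held 62.4% of the counts, and 8 of their 12 members had at least 10 counts on a day. Groups 5 to 8 held 30.4%, nearly all of it Hoxd8 (3090 of 3230 counts), and 2 of 11 members had 10 counts on a day. Groups 9 to 13, the posterior genes, held 7.16%, and 3 of 16 members had 10 counts on a day, namely Hoxb9, Hoxc13 and Hoxd9. In HoxD, Hoxd8 (3090 counts) and Hoxd9 (457 counts) held most of the counts, beside the uncounted Hoxd10, Hoxd11 and Hoxd12, and Hoxd3, Hoxd4 and Hoxd1 had 408.82, 73.44 and 27.

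The 15 members with few counts summed to 143 counts over the whole course. Hoxb5 had 31 counts, Hoxa4 had 28 and Hoxd1 had 27, and each of them had counts on at least 7 days. Hoxb7 had 13 counts, and Hoxa7 and Hoxc6 had 12 each. The other 9 had 1 to 4 counts: Hoxd13 had 4, Hoxa11, Hoxc4 and Hoxc10 had 3, Hoxa13 and Hoxb8 had 2, and Hoxc5, Hoxc9 and Hoxc12 had 1. Apart from Hoxd13, these 9 were at or under the limit that a count of 0 allows. None of the 15 exceeded 0.307 TPM on any day, which Hoxc6 reached on day 6. Whether such counts came from transcripts of these genes, from reads shared with a paralogue or from a few cells was not tested.

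Between 17 and 20 members had a count on any one day. The summed level of the 39 genes was 6.35 TPM on day 2, reached 31.8 TPM by day 10 and lay between 28.3 and 33.5 TPM from then on. Of this sum, Hoxa2 and Hoxd8 together held 34.5% at day 2, 54.0% at day 10, 67.2% at day 12 and 66.6% at day 18. Hoxa3 added 6.67 TPM at day 10, with an SD of 3.36 over 3 profiles, which limits the sum and share there. In CPM, which use no length, Hoxa2 and Hoxd8 stood at 13.1 and 12.4 of 39.1 at day 10. By day 18 they stood at 15.7 and 11.7 of 37.8, so a climb in share after day 10 is not read from the TPM. In bulk RNA, a change in the share of cells that express a gene and a change in RNA per cell cannot be told apart.

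A straight line in day was fitted to all 15659 genes with enough counts (edgeR quasi-likelihood test, Benjamini-Hochberg adjusted p under 0.05), and the change given is the fitted log2 change from day 2 to day 18. With 1 library per day, the test measures the scatter of days around the line. Of the 12 Hox genes that passed the filter, 6 rose and 0 fell, where 28.3% of all genes tested rose and 26.1% fell. At an unadjusted p under 0.05, 7 of the 12 passed, the addition being Hoxb9 with a fitted fall. Of all 15659 genes tested, 8510 passed even after adjustment, so the 7 of 12 are not read as a trait of the family. The median fitted change was 1.75 over the 12 Hox genes and 0.05 over all genes tested. The filter kept 12 of 39 members, so these values do not describe the family. Hoxd4 (73.44 counts) was left out and Hoxa5 (69 counts) was kept.

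**Figure D2:**
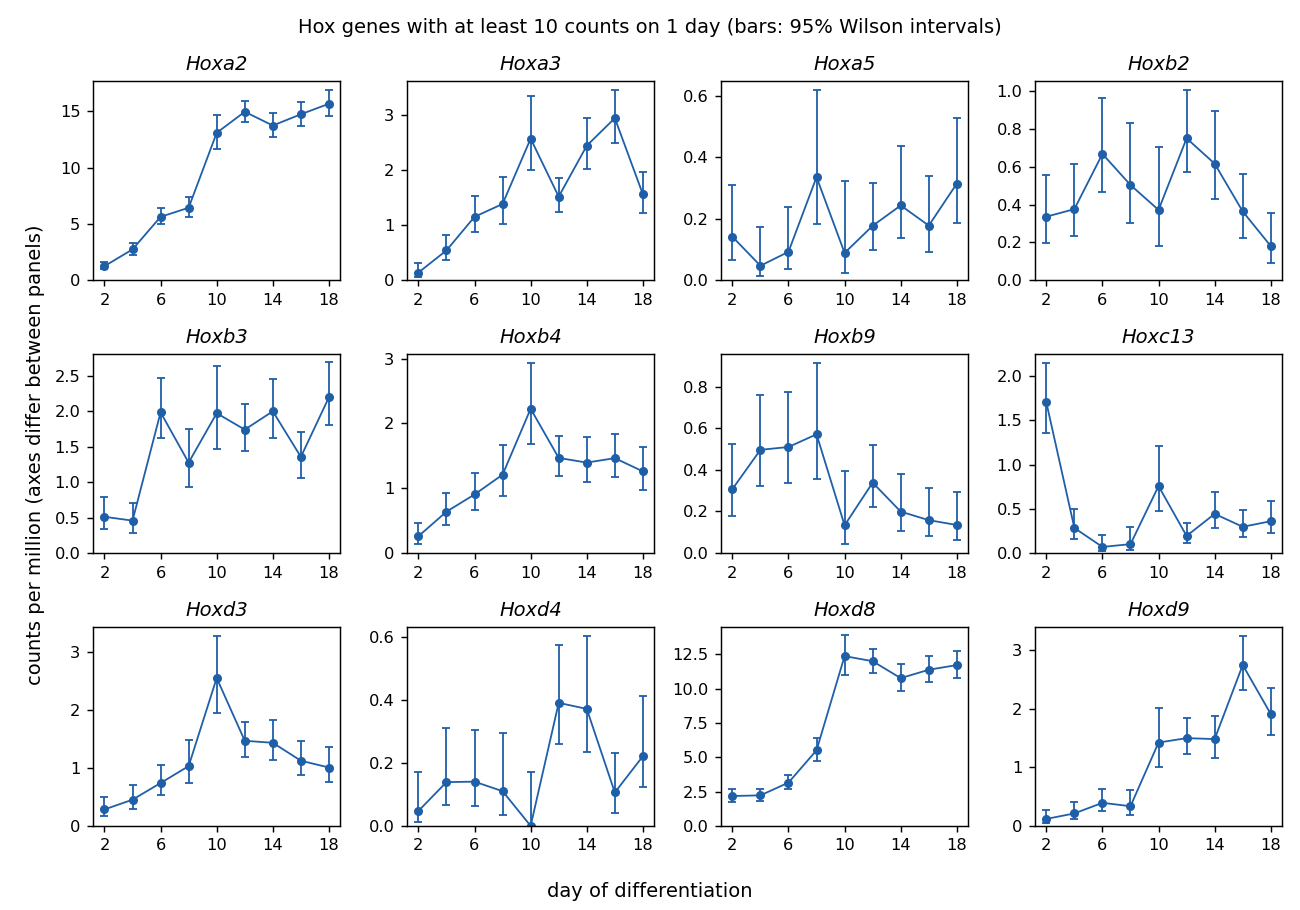
CPM of 12 of the 13 Hox genes with at least 10 counts on 1 day, by day of differentiation, 1 point per summed library, with bars for the 95% Wilson interval and a separate axis for each gene. Hoxa2 levelled off from day 12 and Hoxd8 from day 10, and Hoxc13 was high on day 2 alone.

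Hoxa2 rose most in absolute level. Its counts from day 2 to day 18 were 53, 116, 243, 191.6, 294, 927.24, 620, 744.58 and 696.52. Corrected for depth and length, these were 0.856, 1.92, 3.86, 4.35, 9.06, 12.1, 10.3, 11.3 and 12.1 TPM, a 14.1-fold range between the ends. The level on day 10 was 10.6-fold that of day 2, and day 18 was 1.00-fold day 12, so the rise lay before or at day 12. The Wilson interval was 0.958 to 1.64 CPM on day 2 and 14.6 to 16.9 CPM on day 18. The rise passed the test (3.42, SE 0.59, adjusted p = 0.000767, edgeR with Benjamini-Hochberg adjustment). Among genes with a value above 0, Hoxa2 moved from the 31.4th percentile on day 2 to the 63.8th on day 18.

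Hoxd8, a central member of HoxD used in the trunk of the embryo, had a similar time course. Its counts were 92, 94, 136, 164, 278, 744, 486, 575 and 521, or 1.34, 1.46, 2.55, 3.43, 8.11, 10.4, 7.94, 8.21 and 8.44 TPM. Days 2 and 4 were the lowest, and the step between days 8 and 10 was the largest. From day 10 on the CPM did not climb further (12.4 on day 10, 12.0 on day 12, 11.7 on day 18), whereas the TPM peaked on day 12. The effective length of Hoxd8 ranged from 1620 to 2355 bases between profiles, which limits its TPM. The level on day 18 was 6.31-fold that of day 2 in TPM and 5.39-fold in CPM. The intervals of day 2 (1.77 to 2.67 CPM) and day 18 (10.8 to 12.8 CPM) did not overlap. The fitted rise was 2.98 (SE 0.56, adjusted p = 0.00125, edgeR with Benjamini-Hochberg adjustment).

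Hoxd9, its neighbour towards the posterior end of HoxD, went from 5 counts on day 2 to 85 on day 18. The counts between were 9, 17, 10, 32, 93, 67 and 139. In TPM this was 0.0955 on day 2 and at most 0.305 up to day 8, then 1.10 to 2.38 from day 10 on, so that the earlier and the later days did not overlap. Hoxd9 had the largest fitted change of the family (4.42, SE 0.67, adjusted p = 0.000388, edgeR with Benjamini-Hochberg adjustment), from a start of 0.118 CPM with an interval of 0.0505 to 0.277. The next gene along the cluster, Hoxd10, had 0 counts throughout.

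The group 3 and 4 genes, which act in the hindbrain and pharyngeal arches of the embryo, also rose in part. Hoxa3, which is required for the thymus and parathyroid glands, had 5.92, 22.9, 49.6, 41.16, 57.64, 93.94, 110.04, 148.42 and 69.26 counts. Its fitted rise was 2.85 (SE 0.84, adjusted p = 0.0147, edgeR with Benjamini-Hochberg adjustment). In CPM the level was 0.140 on day 2 and 1.56 on day 18, with a peak of 2.94 on day 16. The TPM of Hoxa3 were less steady (6.67 on day 10, SD 3.36 over 3 profiles), and the effective length that RSEM assigned to the gene ranged from 399 to 2816 bases between profiles. The TPM given for Hoxa3 elsewhere carry this limit.

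Hoxb3 had 21.62, 19.32, 85.5, 37.94, 44.26, 107.8, 90.14, 68.44 and 97.52 counts, low on days 2 and 4 and higher from day 6 on. In CPM it was 0.457 to 0.511 on the first 2 days and 1.27 to 2.19 afterwards. The fitted rise was 1.68 (SE 0.64, adjusted p = 0.0457, edgeR with Benjamini-Hochberg adjustment). Hoxb4, known for its use in expanding blood stem cells, had 11, 27, 39, 36, 50, 91, 63, 74 and 56 counts and peaked at 2.23 CPM on day 10. Its rise was 1.82 (SE 0.71, adjusted p = 0.0500, just under the threshold, edgeR with Benjamini-Hochberg adjustment). Both calls were lost in 10 of the 20 alternative fits. Hoxb3 did not pass without day 2, 4, 8, 12, 14 or 18, nor Hoxb4 without day 2, 4, 6, 8, 12, 14 or 16. Without day 2 the fitted changes were 1.23 and 1.07, and the adjusted p over all alternatives (edgeR or DESeq2) ranged from 0.000595 to 0.179 for Hoxb3 and from 0.000238 to 0.211 for Hoxb4. By contrast Hoxa2, Hoxa3, Hoxd8 and Hoxd9 passed in all 20. Hoxa3 came close to the threshold, with an adjusted p of 0.0495 without day 4 (edgeR with Benjamini-Hochberg adjustment). Those of Hoxa2, Hoxd8 and Hoxd9 were at most 0.00830 (edgeR or DESeq2).

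Hoxd3 and Hoxa5 had fitted changes above 0 that did not pass. Hoxd3 had 12, 19.12, 31.94, 30.72, 57.4, 91.16, 64.78, 56.88 and 44.82 counts. Its effective length ranged from 543 to 3248 bases, which limits its TPM as well. It was lowest on day 2 (0.284 CPM) and highest on day 10 (2.55 CPM), and its fitted change was 1.86 (SE 0.87, adjusted p = 0.0958, edgeR with Benjamini-Hochberg adjustment). Hoxa5, which patterns the lung and the cervicothoracic skeleton, had 2 to 14 counts a day and a fitted change of 1.46 (SE 0.82, adjusted p = 0.154, edgeR with Benjamini-Hochberg adjustment). Hoxd4 had 0 to 24.24 counts a day, too few for the test, with 0 on day 10, the shallowest day, and 0.391 CPM on day 12.

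Hoxb2 had 14.22, 15.92, 28.84, 15, 8.36, 46.56, 27.84, 18.4 and 8.04 counts with no steady direction (-0.12, SE 0.76, adjusted p = 0.904, edgeR with Benjamini-Hochberg adjustment). The sign of that value turned when replicate 1 or day 6, 16 or 18 was left out. Hoxa2 and Hoxb2, the 2 members of group 2, thus had different courses in the same libraries, although no test of their difference was made. Hoxb9 had 13, 21, 22, 17, 3, 21, 9, 8 and 6 counts. It was 0.307 to 0.571 CPM up to day 8 and 0.134 to 0.339 CPM afterwards, and its fitted change of -1.66 (SE 0.72) did not pass (adjusted p = 0.0751, edgeR with Benjamini-Hochberg adjustment). Without day 2 it passed with -2.22 (adjusted p = 0.0410, edgeR with Benjamini-Hochberg adjustment), and the comparison of days 2 to 6 with days 14 to 18 also called it.

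Hoxc13, a gene of hair follicle and nail and the posterior end of HoxC, was the exception in shape. It had 72 counts on day 2, then 12, 3, 3, 17, 12, 20, 15 and 16. The 3 profiles of day 2 had 25, 24 and 23 counts, so the level (1.14 TPM, SD 0.0610) did not come from 1 lane. The interval of day 2 (1.35 to 2.14 CPM) lay above those of all other days, the next highest being 0.472 to 1.21 CPM on day 10. A line in day described it poorly (-1.38, SE 1.06, adjusted p = 0.296, edgeR with Benjamini-Hochberg adjustment), and without day 2 the fitted change was 1.19. Day 2 is 1 library, so this level has no replicate. Hoxc13 was one of 9 HoxC genes, and the other 8 had 1 count between them on that day. Epidermal markers, a list chosen after the values of Hoxc13 had been seen, summed to 1.98 TPM on day 2 and to between 1.73 and 5.48 TPM over the course, and of its 5 genes Krt14 had 0 counts, Krt5 had 7, Krt1 had 66, Krt10 had 764 and Trp63 had 978. Of these, Trp63 rose (3.73, adjusted p = 0.000118, edgeR with Benjamini-Hochberg adjustment), and on day 2 it stood at 0.331 TPM and Krt10 at 1.55 TPM. The part of such cells in the Hoxc13 value was not tested.

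**Figure D3:**
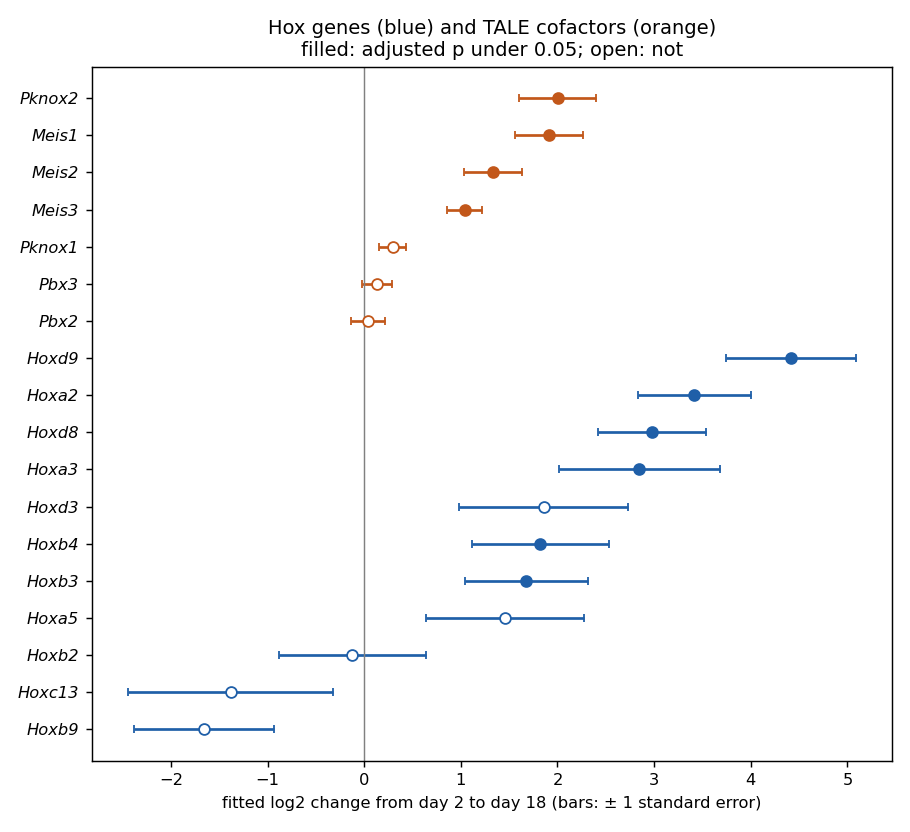
Fitted log2 change from day 2 to day 18, with bars of 1 standard error, for 11 Hox genes (blue) and 7 TALE cofactors (orange) with enough counts for the test. Filled points passed at an adjusted p under 0.05. The 6 filled Hox genes and the 4 filled cofactors all lie to the right of 0, and the Hox genes with a negative value are all open.

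Between the outermost Hox genes of the 4 clusters the annotation places 32 other genes, of which 19 had no count and 9 had at least 10 counts on a day. All 6 microRNA identifiers in the clusters had 0 counts. These hairpins are shorter than the mean fragment length that the authors set for RSEM, so counts could hardly be assigned to them. The same holds for the further identifiers at the same places, which are also among the 19 without a count. Whether these microRNAs were transcribed was therefore not tested. The strand of the libraries is not given in the sources used here, so reads of a Hox gene and of an antisense neighbour cannot be told apart where they overlap. Hoxb3os, antisense to the start of Hoxb2 and the end of Hoxb3 (chr11:96206795-96216005, minus strand), had 1003.34 counts, more than any HoxB gene. It rose (0.786 TPM on day 2, 2.78 TPM on day 18, fitted change 1.24, SE 0.38, adjusted p = 0.0190, edgeR with Benjamini-Hochberg adjustment). 5730446D14Rik, which lies between Hoxa2 and Hoxa3 on the opposite strand and overlaps Hoxa3 by 1055 bases, had 317.08 counts and rose by 3.12 (SE 0.83, adjusted p = 0.00886, edgeR with Benjamini-Hochberg adjustment).

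The other 7 neighbours with counts did not pass or were not tested. 1700109F18Rik, which runs antisense across the whole of Hoxd8 and into Hoxd3, had 290.7 counts and a fitted change of 2.00 (adjusted p = 0.0522, edgeR with Benjamini-Hochberg adjustment). Gm15051 (266 counts), in HoxA, and Gm15050 (148 counts), within Hoxa3, had fitted changes of 0.74 and 0.85. Gm53 beyond Hoxb9 (84 counts) and 6720416L17Rik between Hoxd3 and Hoxd1 (63 counts) had 0.67 and 2.56. 5730596B20Rik and 2700086A05Rik, both in HoxA, had 51.04 and 31 counts and were not tested. Of the 9 neighbours with at least 10 counts on a day, Gm53 and 5730596B20Rik are annotated as protein-coding and the others as noncoding. Counts in HoxA, HoxB and HoxD thus included neighbours of the counted Hox genes. What share of a Hox gene's reads belongs to such a neighbour was not tested.

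The promoter of a Hox gene may be bound by Hox proteins themselves together with their partners, and promoters of Hoxb1 and Hoxd8 are shown for that reason, the former as a gene without a count and the latter as a gene that rose. Both are read from RefSeq on GRCm38.p6, cover 240 bases and end 10 bases before the start of transcription, on the plus strand, at chr11:96365508-96365747 for Hoxb1 and chr2:74704365-74704604 for Hoxd8. Capitals mark a match to TGATNNAT, a Hox-Pbx motif, or TGACAG, a Meis motif, on either strand, and the Hoxd8 window held neither.
Hoxb1: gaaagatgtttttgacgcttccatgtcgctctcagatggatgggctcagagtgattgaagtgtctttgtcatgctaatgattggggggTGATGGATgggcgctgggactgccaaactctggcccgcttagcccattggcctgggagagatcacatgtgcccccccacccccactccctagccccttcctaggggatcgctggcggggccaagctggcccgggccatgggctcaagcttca
Hoxd8: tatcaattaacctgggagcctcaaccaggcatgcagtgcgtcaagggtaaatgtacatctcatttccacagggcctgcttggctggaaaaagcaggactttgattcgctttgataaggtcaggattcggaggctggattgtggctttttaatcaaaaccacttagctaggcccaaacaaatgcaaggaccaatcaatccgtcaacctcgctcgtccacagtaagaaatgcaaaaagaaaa
Over the 250 bases before the start, 22 of the 39 Hox genes had an entry in the RefSeq promoter table. TGATNNAT was found in 3 of the 22 (Hoxa2, Hoxb1 and Hoxb8), beside 7.68% of 32851 promoters, and TGACAG in 2 of the 22 (Hoxa2 and Hoxa3), beside 15.9%. The Hox promoters held a median of 12 CpG dinucleotides, beside 6 over all promoters. The 7 Hox promoters of genes without a count held a median of 7 CpG (2 to 24), the 5 of genes that rose a median of 13 (6 to 18) and the other 10 a median of 12.5 (3 to 35). The ranges overlapped, and a match of letters is no evidence of binding.

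Hox proteins bind DNA with partners of the TALE class, the Pbx, Meis and Pknox (Prep) homeodomain proteins, which were far more abundant than the Hox genes. The 9 TALE genes summed to 148 TPM on day 2 and 341 TPM on day 18. Of the 8 tested, 5 rose and 0 fell. Meis1 went from 12.7 to 51.6 TPM (fitted change 1.91, adjusted p = 0.00109), Meis2 from 18.2 to 49.7 TPM (1.33, adjusted p = 0.00362), Meis3 from 16.3 to 32.4 TPM (1.04, adjusted p = 0.000869) and Pknox2 from 2.36 to 11.0 TPM (2.00, adjusted p = 0.00181, all edgeR with Benjamini-Hochberg adjustment). Pbx2 (0.04), Pbx3 (0.13) and Pknox1 (0.30) did not pass, and Pbx4 had 45 counts and was not tested. On day 18, Meis1 alone (51.6 TPM) was above the summed 39 Hox genes (30.8 TPM).

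The ParaHox and Evx genes, the closest relatives of the Hox genes, were at the floor. Of the 8, 5 had no count, Cdx1 had 6 counts, and Cdx4 and Evx2 had 1 each. The calvarial patterning factors were at 134.5 to 248 TPM in sum. Of these 7 genes, Dlx5 rose (0.86, adjusted p = 0.0295) and Msx2 (-3.99, adjusted p = 5.71e-05) and En1 fell (edgeR with Benjamini-Hochberg adjustment). Msx2 had 130 TPM on day 2 and 12.9 TPM at the end. The limb and somite factors summed to 7.31 TPM on day 2 and 78.4 TPM on day 18, and all 4 tested of the 6 rose. Meox2, a mesodermal homeobox gene, went from 3.28 to 50.1 TPM (4.41, adjusted p = 0.000654, edgeR with Benjamini-Hochberg adjustment), whereas Tbx5, a forelimb gene, had 22 counts and Uncx had 0.

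Hox genes are held silent by Polycomb and kept active by Trithorax proteins, and retinoic acid activates the anterior members. Of 15 Polycomb genes, 8 rose and 4 fell. Pcgf2 was the highest (33.3 to 66.7 TPM from day 2 to day 18), Cbx7 rose most (2.40, adjusted p = 0.0123) and Eed, a core subunit of the complex that methylates histone H3, fell most (-1.29, adjusted p = 0.000275, edgeR with Benjamini-Hochberg adjustment). Other genes of the same complex, named after their values were seen, went both ways: Ezh2 (-0.92) and Suz12 (-0.94) fell, and Ezh1 (1.03) and Jarid2 (1.80) rose. Of 8 Trithorax and demethylase genes 3 rose, the most Kdm6a (0.47, adjusted p = 0.0103), and 4 fell, the most Wdr5 (-1.08, adjusted p = 0.000329, edgeR with Benjamini-Hochberg adjustment), with Ash2l the highest (22.0 TPM on day 18). Both lists thus moved in both directions.

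Of 16 retinoic acid genes 12 were tested, and 4 rose and 0 fell. Aldh1a2, which makes retinoic acid, rose (1.11 TPM on day 2, 96.9 TPM on day 18, fitted change 6.98, adjusted p = 3.66e-06, edgeR with Benjamini-Hochberg adjustment). Crabp1, a cytoplasmic binding protein, was the highest and went from 179 TPM through 979 TPM on day 8 to 133 TPM (fitted change -1.69, adjusted p = 0.196, edgeR with Benjamini-Hochberg adjustment). Aldh1a2 was at 7.93 TPM on day 10 and 21.9 TPM on day 12. Whether these genes have a part in the Hox values was not tested.

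Markers of other cell types moved over the same days. The 7 monocyte and macrophage markers summed to 24.1 TPM on day 2, 190 TPM on day 10 and 2014 TPM on day 18, and 6 of 7 rose, with Lyz2 the highest and Emr1 the largest rise (7.73, adjusted p = 9.21e-06, edgeR with Benjamini-Hochberg adjustment). The 5 adipocyte markers all rose. They summed to 7.44 TPM on day 2, 3.21 TPM on day 6 and 407 TPM at the end, with Fabp4 the highest and Cfd the largest rise (12.67). Between days 10 and 18, macrophage and adipocyte markers went on climbing while the Hox sum stayed between 28.3 and 33.5 TPM. The 4 endothelial markers summed to 3.24 TPM on day 2, 5.10 TPM on day 8 and 10.2 TPM on day 10. They reached 12.0 TPM on day 14 and were at 8.84 TPM on day 18. Most of this sum was Tek, at 4.35 TPM on day 8 and 8.44 TPM on day 10. Tek, the highest, and Cdh5 rose (2.97 and 1.91), Kdr fell, and Pecam1 had 68 counts and was not tested. The 4 cartilage markers were at 99.7 to 136 TPM, where Col2a1, the highest, fell and Col9a1 rose.

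The 6 osteoblast markers summed to 1616 TPM on day 2 and 4640 TPM on day 18, of which Col1a1 alone held 1526 and 4263 TPM. Of the 6 markers, 4 rose and 0 fell. The largest rise was that of Bglap (11.27, adjusted p = 4.75e-05, edgeR with Benjamini-Hochberg adjustment), osteocalcin, which shares reads with near-identical copies. Bglap was at 1.88 TPM on day 10 and 208 TPM on day 18. The part of any of these cell types in the Hox values was not tested.

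**Figure D4:**
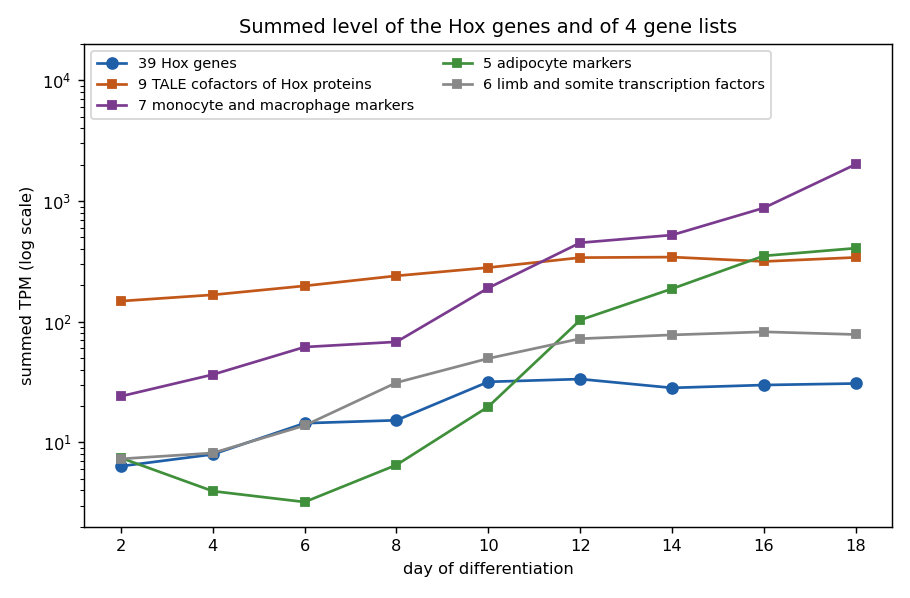
Summed TPM by day on a log axis for the 39 Hox genes, the 9 TALE cofactors, the 7 monocyte and macrophage markers, the 5 adipocyte markers and the 6 limb and somite transcription factors, 1 summed value per day. The Hox sum was 6.35 TPM on day 2, 31.8 TPM on day 10 and level afterwards, as the TALE sum did from day 12, while the macrophage and adipocyte sums climbed to day 18.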

How the data were processed

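RNA sequencing profiles of calvarial cells at 9 time points (27 profiles) were used. The authors used Bowtie 0.12.9 against NCBIM37 transcripts and estimated gene levels by RSEM, version 1.2.8 per the labels. The expected counts deposited by the authors are not normalized. The TPM and FPKM deposited by the authors divide counts by an effective length averaged over isoforms. GENCODE vM1 gave symbols for 37205 of 37991 identifiers.

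TPM were divided by the 75th percentile of values above 0 in the profile and scaled back by the average of the 27 percentiles. Expected counts of the 3 profiles of a day were summed and rounded to whole numbers for the test, since profiles of a day differed by no more than counting noise (chi-square per degree of freedom 0.999 to 1.02 over 9352 to 10045 genes with whole-number counts, p = 0.0513 to 0.537). edgeR 4.0.16 in R 4.3.3 fitted a line in day by quasi-likelihood, with factors from the upper quartile, genes kept by filterByExpr at 10 counts, and Benjamini-Hochberg adjustment. The fit was also run on simulated counts with straight-line changes. Their scatter was that around a smooth curve in day (common dispersion 0.0196), which is less than that around the line (0.0581). That run therefore does not gauge the calls made here. Alternatives were TMM factors, DESeq2 1.42.0, other filters and models of day, profiles as samples, and replicates or days left out.

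The Hox genes and the gene lists were chosen with earlier results of these data known. Members are described, those with at least 10 counts on 1 day by their values. Of the lists, the TALE cofactors are named, and of each other list the gene with the highest mean TPM and the largest rise and fall that passed. Neighbours in a cluster with at least 10 counts on 1 day are named. Values of 1 Hox gene and 1 cofactor are not reported here.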

Additional observations from a re-analysis of the deposited data

How the results depend on the processing

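The number of Hox genes that followed day (6) ranged from 4 to 7 over 20 alternative fits, and that of all genes (8510) from 7187 to 10881. Of 223 recomputed fitted changes of Hox genes, 189 kept their sign and their side of the threshold, 20 lost the call (10 of Hoxb3 and 10 of Hoxb4), 9 gained it (7 of Hoxd3 and 2 of Hoxb9) and 5 changed sign without a call. The sign changes were Hoxb2 at 0.41 without replicate 1 (-0.43 to 0.41 with each replicate left out), 0.083 without day 6, 0.065 without day 16 and 0.61 without day 18, and Hoxc13 at 1.19 without day 2. Apart from the days left out, the cause was not tested. Without filter, 28 members were tested and 6 were called, beside 8703 called of all 23138 genes tested. There Hoxa7 rose and Hoxd13 fell, on 12 and 4 counts in the whole series, and Hoxb3 and Hoxb4 were lost.

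With 27 profiles as samples and no replicate block, 7 of 8 tested Hox genes were called, beside 10754 of all 13835 genes tested. With the replicate block, 7 of 10 were called, beside 10881 of 14244. Deviations of profiles from their day were nearly uncorrelated (mean 0.00485 for the same replicate number and -0.00242 for different numbers). With 3 numbers to choose from, 16 of 27 profiles were nearest to their own, so a weak pairing was not excluded. Both fits take lanes of 1 library as samples. Leaving out each replicate gave 4 to 5 called Hox genes, 8194 to 8245 genes in all, 11 to 13 Hox genes without a count and 7 to 8 that reached 1 TPM.

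The 11 members without a count became 19 when up to 3 counts were allowed. The 8 that reached 1 TPM became 19 at 0.1 TPM, 9 at 0.5 TPM and 3 at 5 TPM, 8 with TPM as deposited and 6 with FPKM. No day had a second library, so levels on a single day, such as Hoxc13 on day 2, have no check, and 27 of the 39 members did not pass the filter of the test.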
